A study of Mus musculus with 49 samples.

Results

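The genes described here are the mouse complement and coagulation factors, a list of 41 symbols looked up in the deposited table of transcript counts. Of these, 40 matched 1 of its 46078 gene identifiers, and Klkb1, plasma prekallikrein, was not analysed here. Of the 40, 39 had enough counts to be tested over the time course. The exception was C5ar1, the receptor for the complement fragment C5a, which had 3 counts in 1 fresh library. It is described only by that count and enters the medians and counts given over 40 members. RNA was counted in 49 libraries of 16 groups. Hepatocytes of 10 week-old wild-type C57BL/6J mice were sampled fresh (FH, n = 3) and after plating, at 3 h, at 1, 2 and 4 days and at 1 and 2 weeks (n = 3 each), in a monolayer medium with EGF at 20 ng/mL, and after 1 week with verteporfin, an inhibitor of Yap, at 0.3 µM or with its solvent DMSO (n = 2 each). Passaged, dedifferentiated hepatocytes (dediHeps, n = 5 cultures) were compared with the 3D aggregates (n = 3) and spherical organoids (dediHep-SOs, n = 3) made from them, with budding organoids made after retroviral expression of Cdx2 (dediHep-BOs, n = 3), and with CLiPs (n = 3), hepatocytes dedifferentiated with the small molecules Y-27632, A-83-01 and CHIR99021. Intestinal references were spherical organoids of E13.5 fetal intestine (FIPC-SOs, n = 3) and budding organoids of small intestinal crypts of 10 week-old mice (ISC-BOs, n = 4). All samples were wild type and C57BL/6J per the labels, and the hepatocytes behind dediHeps, their derivatives and CLiPs also came from mice aged 10 weeks.

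Complement and coagulation are cascades of plasma proteins in which one protease activates the next. Complement starts through the classical, lectin or alternative pathway, meets at C3 and ends in a pore built of C5 (gene Hc), C6, C7, C8 and C9. Coagulation runs through vitamin K-dependent proteases to thrombin, which turns fibrinogen into fibrin, and plasmin dissolves the clot. Most of these proteins are made by hepatocytes and secreted, so their transcripts are widely used as signs of a differentiated hepatocyte.

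Library totals ran from 861047 to 3872936 counts. Levels are CPM, counts per 1000000 after TMM scaling over the 49 libraries, listed in replicate order. After a share ± is the SD between libraries, and after a log2 fold change it is the SE. The sum of 10 hepatocyte markers was 25276 to 34359 CPM in FH, 3253 to 4172 at 2 weeks and 1443 to 6326 in dediHeps. In bulk libraries, fewer hepatocytes and less transcript per hepatocyte cannot be told apart. Endothelial and macrophage marker sums, 191 to 319 and 148 to 461 CPM in FH, were 0 to 0.946 and 0.946 to 10.6 CPM in dediHeps, and macrophage sums were 301, 385 and 10.4 CPM in the 3 libraries at 2 weeks. The sum of 5 cholangiocyte markers was 17.8 to 106 CPM in FH, 692 to 733 at 3 h, 1137 to 1318 at 2 weeks, 1010 to 1670 in dediHeps, 303 to 551 in aggregates and 1425 to 2566 in CLiPs, and it moved against the members from 2 days to 2 weeks and from dediHeps to aggregates. The part of these markers' cells in the results was not tested. The labels do not say which fresh and plated libraries came from separate mice, so p-values measure the spread between these samples. Molecules were told apart by identifiers (UMIs) of 6 bases, a limited set, so that high counts are too low. The highest member count was 3953, for Fga at 3 h, and falls of such abundant members to low counts are understated.

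Promoter sequences are shown first for 5 members whose levels set the patterns below apart: C8a, C8b and C6, terminal components with 0 counts in dediHeps, Fgb, which kept more of its level over 2 weeks, and C4bp, which was found in every kind of organoid. Each is the 250 bases before the start in RefSeq (GRCm38.p6), 5′ to 3′ on the strand of the gene. Capitals mark matches, on either strand, to GTTAAT, letters within the site of HNF1, to TTGCNNAA, bound by C/EBP factors, or to CTGGGAA, bound by STAT3. The C8a window lies at chr4:104876399-104876648 (minus strand), that of C8b at chr4:104766067-104766316 (plus), that of C6 at chr15:4726960-4727209 (plus), that of Fgb at chr3:83049864-83050113 (minus) and that of C4bp at chr1:130661619-130661868 (minus).
C8a: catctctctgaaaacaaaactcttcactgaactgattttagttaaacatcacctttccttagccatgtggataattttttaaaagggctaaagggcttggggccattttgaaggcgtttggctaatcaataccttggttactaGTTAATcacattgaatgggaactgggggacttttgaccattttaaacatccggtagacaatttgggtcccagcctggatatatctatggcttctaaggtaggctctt
C8b: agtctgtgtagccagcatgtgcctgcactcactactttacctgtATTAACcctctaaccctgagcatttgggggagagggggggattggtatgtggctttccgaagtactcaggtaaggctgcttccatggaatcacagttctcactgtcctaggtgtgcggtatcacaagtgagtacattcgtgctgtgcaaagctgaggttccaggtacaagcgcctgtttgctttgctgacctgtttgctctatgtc
C6: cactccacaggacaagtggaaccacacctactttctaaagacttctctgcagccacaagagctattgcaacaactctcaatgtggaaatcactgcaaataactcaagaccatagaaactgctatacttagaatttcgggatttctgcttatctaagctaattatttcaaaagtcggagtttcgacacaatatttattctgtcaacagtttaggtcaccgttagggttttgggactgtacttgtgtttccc
Fgb: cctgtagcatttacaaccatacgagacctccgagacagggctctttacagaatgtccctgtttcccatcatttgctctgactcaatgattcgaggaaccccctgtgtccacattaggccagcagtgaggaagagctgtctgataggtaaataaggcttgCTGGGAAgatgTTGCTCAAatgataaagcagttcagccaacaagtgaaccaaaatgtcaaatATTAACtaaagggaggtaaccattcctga
C4bp: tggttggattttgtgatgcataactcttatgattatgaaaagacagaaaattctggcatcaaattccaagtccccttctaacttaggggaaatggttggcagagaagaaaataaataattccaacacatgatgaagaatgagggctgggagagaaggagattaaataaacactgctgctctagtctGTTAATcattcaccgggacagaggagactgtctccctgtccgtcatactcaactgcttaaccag
The start of the gene in GENCODE M21 lies inside the printed window for C6 and C4bp, so their last bases are transcribed in that annotation. The HNF1 letters begin 107 bases before the start of C8a, 206 before C8b, 29 before Fgb and 64 before C4bp, and Fgb also holds the C/EBP match at 80 and the STAT3 match at 91. Over the 34 windows of the 32 listed members with an entry, 8 (23.5%) held the HNF1 letters, against 6.43% of all 32851 windows. The C/EBP letters were in 9 (26.5% against 9.56%), the STAT3 letters in 5 (14.7% against 9.1%), TATAAA in 2 (5.88% against 12.4%) and CAAAGTCC, a site of HNF4, in 0 (1.2% of all). These matches describe letters only, and no match says only that these letters are not in the window. C8a and C8b are neighbours transcribed toward each other, from 104815679 to 104876398 and from 104766317 to 104804548 on chromosome 4, and the fibrinogen genes Fgg, Fga and Fgb lie side by side on chromosome 3 between 83007724 and 83049863.

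The first comparison followed the members through monolayer culture. At 3 h none of 39 was called. By 1 day 20 were called lower than FH, and the numbers were 36, 38, 38 and 39 at 2 days, 4 days, 1 week and 2 weeks, with none called higher at any time. A gene was called when the FDR of edgeR's quasi-likelihood test (Benjamini-Hochberg) was under 0.1 and the log2 fold change was over 2 in size. Of all 12443 genes tested, 3.85% were called lower at 3 h, 10.9% at 1 day, 12.1% at 2 days, 12.4% at 4 days, 12.8% at 1 week and 15.3% at 2 weeks, and 3.06%, 6.57%, 9.21%, 11.4%, 13.2% and 14.1% were called higher. The median log2 fold change of the members was -0.10 at 3 h, -2.02 at 1 day, -3.60 at 2 days, -4.68 at 4 days, -5.36 at 1 week and -7.28 at 2 weeks, while that of all genes stayed between -0.07 and 0.17. Of the 39, 2 were under 10 counts in every library at 1 day, 3 at 2 days, 8 at 4 days, 15 at 1 week and 22 at 2 weeks, and passed the filter through other times. Together the members made up 2.72 ± 0.15% of all counts in FH, 2.70 ± 0.18% at 3 h, 1.07 ± 0.08% at 1 day and 0.128 ± 0.016% at 2 weeks.

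**Figure D1:**
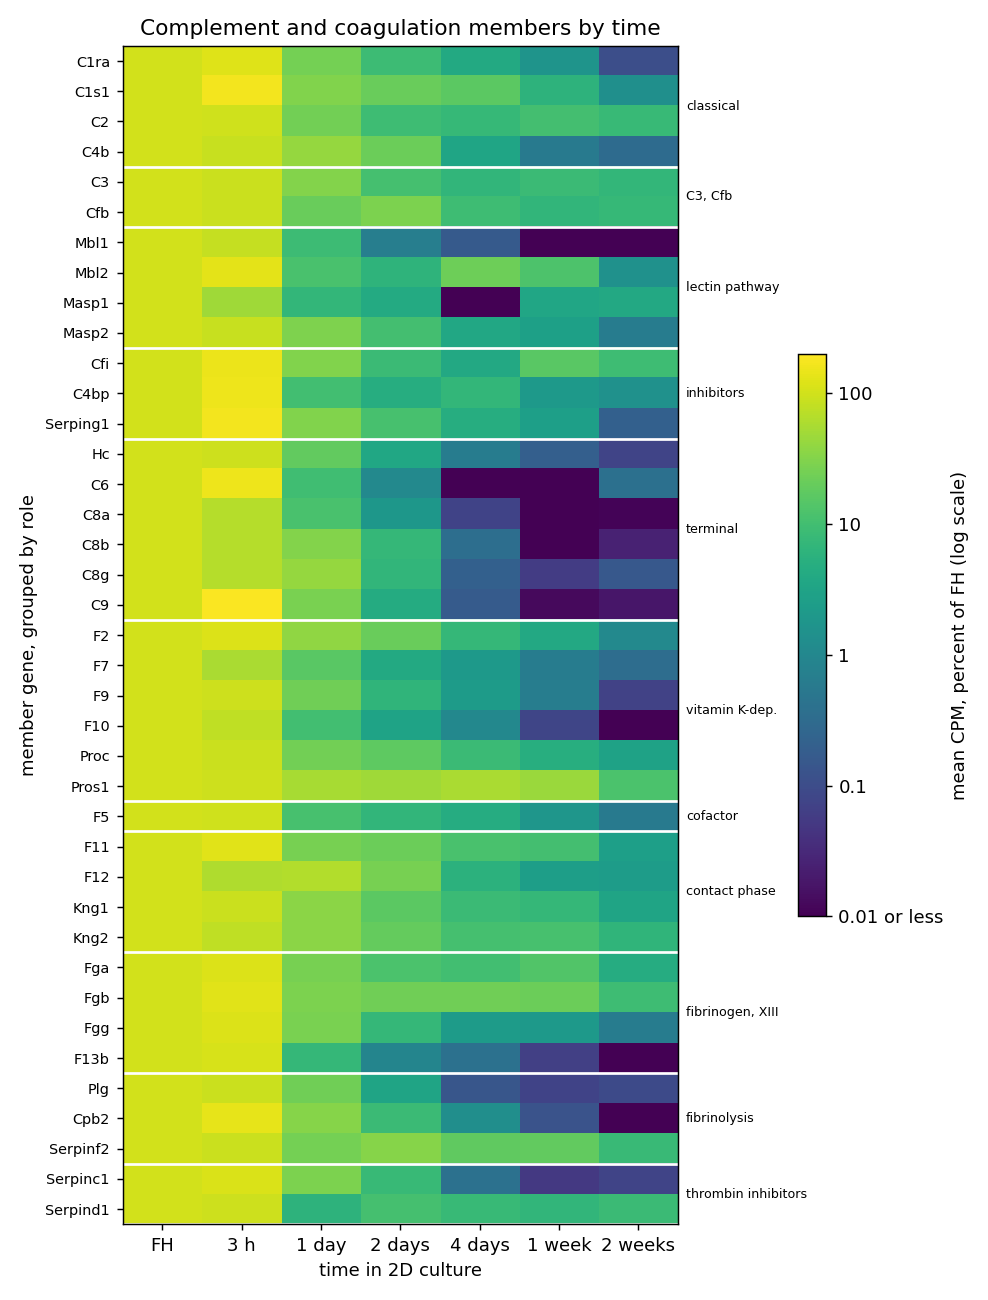
Mean CPM of 39 members as percent of the FH mean (colour, log scale, 0.01% or less drawn as 0.01%) in FH and at 6 times after plating (n = 3 libraries each), with members grouped by role. Over all 40 members, C5ar1 included, the median stood at 94.1% of FH at 3 h, 26.2% at 1 day and 8.81% at 2 days. It was 4.30% at 4 days, 2.61% at 1 week and 0.860% at 2 weeks. At 1 week all 6 terminal components are at 0.197% or less.

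At 3 h the log2 fold changes ran from -1.07 for Masp1, a lectin pathway protease, to 0.89 for C9. C9, the last component of the complement pore, was the member nearest to a change, with 1665, 880.4 and 1323 CPM in FH and 2139, 2891 and 2215 CPM at 3 h. All 3 libraries at 3 h lay above FH, and the log2 fold change of 0.89 ± 0.34 (SE) had an FDR of 0.0896 (edgeR) but did not reach the fold. It was also the only member with an unadjusted p under 0.05 (edgeR) there. At that p 16.2% of all genes were lower and 11.9% higher. DESeq2 called 0 members.

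The order of loss was read as the first time from which a member was called lower at that and all later times. This was 1 day for 18 members, 2 days for 18, 4 days for Cfb and Serpinf2 and 2 weeks for Pros1. At a looser rule, a mean under 50% of FH, 36 members were lost from 1 day. All but Pros1 and F12 had an FDR under 0.1 (edgeR) at 1 day at some size of fall. The shares of all genes under these looser rules are not given here, so these counts are not set against a background.

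Among the first to fall was Serpind1, heparin cofactor II, an inhibitor of thrombin. It went from 1000.4, 1097 and 1333 CPM in FH to 56.4, 65 and 84.4 at 1 day, a log2 fold change of -4.15 ± 0.35 (FDR = 1.07e-08, edgeR), the deepest of any member on that day. It read 113, 66.2 and 91.1 CPM at 4 days and 85.3, 103 and 110.0 at 2 weeks. F13b, the carrier subunit of the clot-stabilizing factor XIII, fell nearly as far by 1 day, from 792, 587 and 664 to 46, 61.9 and 42.7 CPM (log2 -3.85 ± 0.38, FDR = 1.67e-07, edgeR), and went on to 0 counts in all 3 libraries at 2 weeks, at least 1225-fold below FH when 3 counts over the group are taken as the floor. The 2 genes thus shared a fast start and parted afterwards.

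The others first called at 1 day came from most arms of the cascades. They were C1ra and C2 of the classical pathway, Mbl1, Mbl2 and Masp1 of the lectin pathway, the inhibitor C4bp, the terminal components Hc, C6 and C8a, the vitamin K-dependent F7, F9, F10 and Proc, the cofactor F5, F11 and Plg, the precursor of plasmin. By role, 3 of 4 lectin pathway members, 3 of 6 terminal components and 4 of 6 vitamin K-dependent members were called at 1 day, against 1 of 4 in the contact phase and 1 of 4 among fibrinogen and F13b. Fga, the fibrinogen alpha chain, stood at the threshold with 4225, 3969 and 3498 CPM in FH and 957, 1253 and 901 at 1 day. Its log2 fold change of -1.999 ± 0.29 (FDR = 1.67e-05, edgeR) was -2.48 once counts were corrected for shared UMIs, which counts it among the lost of 1 day. F12, which starts the contact phase, was not called at 1 day, at 615, 547 and 736 CPM at 1 day against 431, 1453 and 1137 in FH, with overlapping groups and a log2 fold change of -0.77 ± 0.43 (FDR = 0.185, edgeR).

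The terminal components kept falling after 1 day. Consecutive times were contrasted in the same fit, a comparison chosen after the data were seen. From 1 day to 2 days 9 of 39 members were called lower (1.86% of all genes), from 2 to 4 days 11 (1.27%), from 4 days to 1 week 8 (0.932%) and from 1 to 2 weeks 6 (1.04%). None was called higher, beside 2.52%, 1.08%, 0.796% and 0.707% of all genes. The later steps moved with single libraries, to 14 without 2 days replicate 1, to 4 without 1 week replicate 3 and to 3 without 2 weeks replicate 2. All 6 terminal components measured were among the 9 and again among the 11. The other members were Mbl1, F13b and Plg in the former and Plg, Serpinc1, C4b, Cpb2 and F12 in the latter. C6 and Mbl1 were under 10 counts in every library at 2 days, and Hc, C6, C8g and C9 at 4 days. They passed the filter through other times, so that their call as lower follows in part from the filter. C8a, which forms the pore-inserting chain of C8, read 2771, 4295 and 3282 CPM in FH, 493, 328 and 394 at 1 day, 76, 76.8 and 45.2 at 2 days and 4.07, 1.75 and 1.65 at 4 days. At 2 weeks it had 1 count against 8667 in FH, a ratio of 18276 with a 95% counting interval of 3279 to 721953. C8b, its partner chain, had 468, 325 and 639 CPM at 1 day, 157, 92.7 and 76.9 at 2 days, 9.35, 1.75 and 4.94 at 4 days and 0 counts at 1 week. The step from 2 to 4 days was -4.31 ± 0.52 for C8b and -4.61 ± 0.45 for C9 on the log2 scale (FDR = 2.46e-05 and 9.1e-07, edgeR). By 1 week all 6 were at or near 0, with no library over 1.06 CPM.

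**Figure D2:**
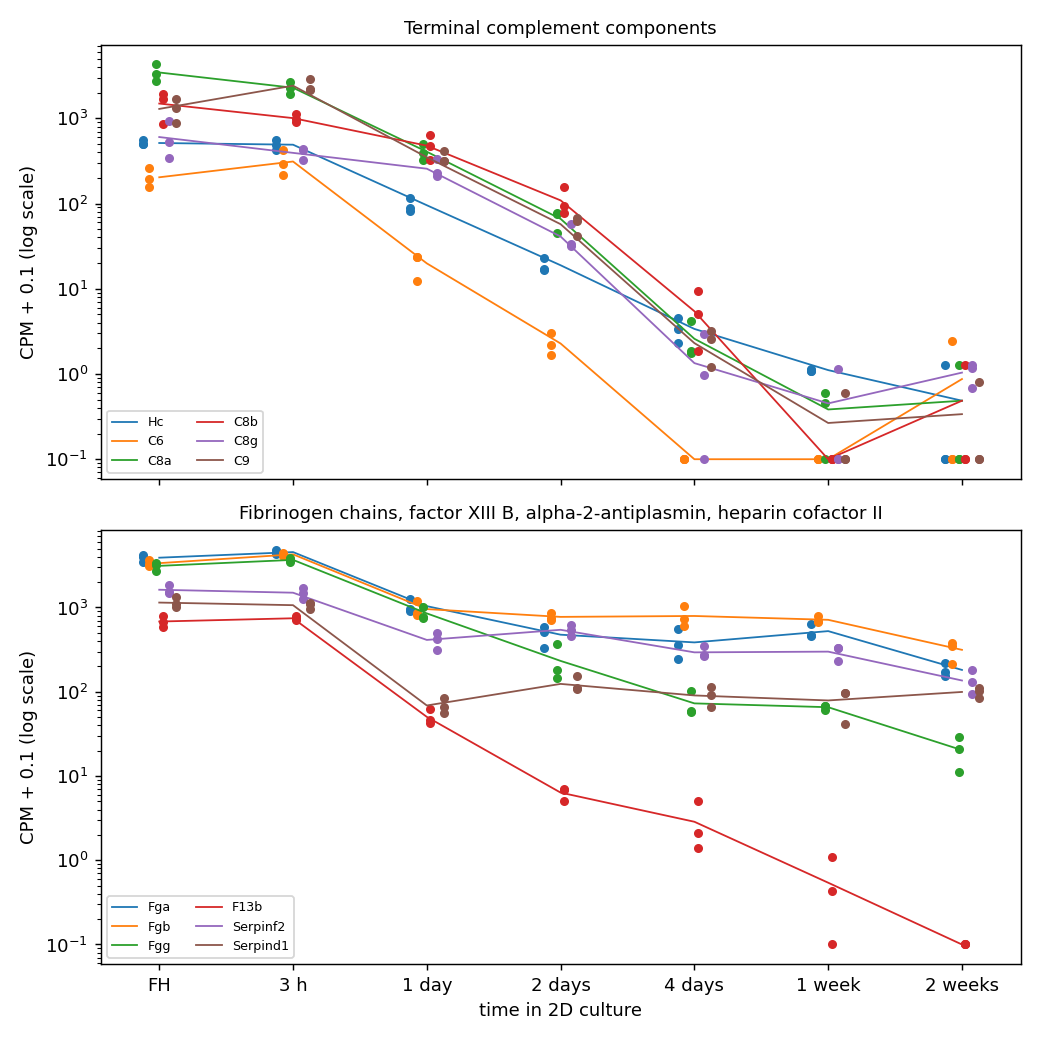
CPM + 0.1 (log axis) in every library of FH and 6 times after plating, with lines through the group means (n = 3 each), for the 6 terminal complement components (upper panel) and for fibrinogen chains, F13b, Serpinf2 and Serpind1 (lower panel). By 1 week no terminal component exceeds 1.06 CPM, while Fgb keeps 689, 668 and 785 CPM and Serpind1 keeps 97.8, 41.4 and 96.9 CPM.

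A second course was an early fall followed by a plateau. Fgb, the fibrinogen beta chain, had 3136, 3691 and 3244 CPM in FH, 863, 1188 and 819 at 1 day, 596, 730.0 and 1051 at 4 days and 345, 216 and 381 at 2 weeks. Between 1 day and 1 week none of its steps was called, and at 2 weeks its log2 fold change from FH was -3.44 ± 0.29 (FDR = 1.63e-09, edgeR). Fibrinogen is a hexamer of pairs of 3 chains, and its genes did not keep together, since Fga stood at 4.65%, Fgb at 9.36% and Fgg at 0.647% of FH at 2 weeks. Serpinf2, alpha-2-antiplasmin, which blocks plasmin, read 317, 498 and 420.4 CPM at 1 day, 463, 545 and 622 at 2 days and 131, 94.4 and 182 at 2 weeks, against 1503, 1825 and 1543 in FH. It was called lower at 1 day, not at 2 days and again from 4 days, which puts it late in the order of loss although it fell early.

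At 2 weeks 9 members were still above 5% of FH, namely Pros1, Fgb, Cfi, Serpind1, Serpinf2, C2, Cfb, C3 and Kng2, and 11 were under 0.1%, namely Mbl1, Hc, C8a, C8b, C9, F9, F10, F13b, Plg, Cpb2 and Serpinc1. Cfb, a protease of the alternative pathway, was near the floor throughout, with 27 counts over the 3 libraries of FH and 4 at 2 weeks. Of the 6 terminal components, Hc, C8a, C8b and C9 were under 0.1%. Pros1, the anticoagulant protein S, which cells other than hepatocytes also make, read 107, 56.1 and 24.8 CPM in FH, 30.5, 48.3 and 29.6 at 4 days and 9.64, 8.8 and 4.63 at 2 weeks. Its 3 fresh libraries spread widely, and it was called lower at 2 weeks alone (log2 -2.97 ± 0.55, FDR = 0.000118, edgeR). Serpinc1, antithrombin, was among the lost, from 1772, 1915 and 1724 CPM in FH over 198, 123 and 106 at 2 days to 8.95, 7.9 and 4.94 at 4 days and 0.352, 1.5 and 0.979 at 1 week.

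Over the 4 steps after 1 day, only Mbl2 and Cfi passed the FDR in the upward direction, both just under the fold. Mbl2, a mannose-binding lectin that opens the lectin pathway, fell to 48.3, 57 and 74.4 CPM at 2 days, was at 211, 327 and 106 at 4 days and at 11.4, 15.2 and 16.2 at 2 weeks. The groups at 2 and 4 days did not overlap, with a log2 difference of 1.86 ± 0.38 (FDR = 0.00488, edgeR), which was over 2 without replicate 3 of either time. Its relative Mbl1 had 2.06, 0.776 and 2.43 CPM at 2 days and 0 counts at 1 and 2 weeks. Cfi, factor I, the protease that cuts C3b and C4b, was lowest at 4 days with 16.7, 21.9 and 11 CPM and stood at 59.8, 65.3 and 70.2 at 1 week (log2 1.97 ± 0.33, FDR = 0.00126, edgeR).

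Verteporfin was used by the study to ask about Yap activation in cultured hepatocytes. None of the 24 members tested passed (0.0288% of all genes were called lower and 0.24% higher), and their median log2 difference from DMSO was -0.53, beside 0.00 over all genes. Without adjustment 9 members had p under 0.05, all lower with verteporfin, beside 4.17% of all genes lower and 5.07% higher at that p, and DESeq2 called 0. F5 and C4bp moved most, with 5.18 and 4.34 CPM against 19.1 and 17.9 in DMSO for F5 (log2 -1.92 ± 0.43, FDR = 0.174, edgeR) and 3.88 and 8.05 against 22.4 and 20.1 for C4bp (log2 -1.79 ± 0.44, FDR = 0.214, edgeR). Without verteporfin replicate 2, C4bp was called lower (log2 -2.38, FDR = 0.0213, edgeR), in a fit of 1 library against 2 that takes its spread from DMSO and assumes it for verteporfin.

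In dediHeps, the passaged end of the culture, all 38 members tested were called lower than FH (12.6% of all genes), with a median log2 fold change of -6.62 beside 0.08 over all genes. Of these, 14 were under 10 counts in every dediHep culture and passed the filter through FH alone, so that they had to differ. Hc, C6, C8a, C8b, Mbl1 and F9 had 0 counts in all 5 cultures, which puts C8a at least 13315-fold and C6 at least 788-fold below FH. C3 remained at 233, 862, 318, 1123 and 485 CPM in the 5 cultures, 20.2% of FH. The inhibitors C4bp, at 151, 51.7, 84.3, 41.4 and 286 CPM, and Cfi, at 40.2, 81.9, 11.2, 58.8 and 202, also remained in every culture. The cultures differed among themselves, with the median member at 0.0927% of FH in replicate 1 and 1.72% in replicate 5.

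When dediHeps were grown as aggregates, the members came back unequally. Of 32 tested against dediHeps, 24 were called higher (4.39% of all genes) and none lower (5.11%), and the median log2 fold change was 3.97 beside -0.07 over all genes. Over all 40 members, C5ar1 included, the median reached 24.9% of FH in aggregates from 0.944% in dediHeps. Over 39 members, without C5ar1, it was 21.3%, 23.9% and 29.9% in the 3 aggregate libraries. Of the 32, 7 were under 10 counts in every dediHep culture and passed the filter through aggregates. They were Mbl2, C4b, Hc, C8b, F13b, Plg and Serpinc1. All 7 were among the 24, and their direction was fixed by the filter. On CPM of the library total, without TMM factors, the median over all 40 members stood at 37.1% of FH in aggregates. Against FH, 18 of 37 were called lower (9.78% of all genes) and none was higher (6.78%). At some size of fall 32 had an FDR under 0.1 (edgeR), a looser rule for which the share of all genes is not given here. The labels give aggregates and dediHeps shared culture names, and a block for the 3 shared cultures gave 25 calls in place of 24, Proc among them.

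Plg, Serpinc1 and Cpb2, which act on or against clots, were among the members with the largest gains. Plg, almost absent from dediHeps at 0, 3.52, 0, 1.97 and 2.37 CPM, was 232, 305 and 674 CPM in aggregates (log2 8.02 ± 0.77, FDR = 0.000247, edgeR), 22.2% of FH. Serpinc1 went from 2.24, 2.51, 0.906, 0.395 and 1.42 to 269, 102 and 717 CPM (log2 7.95 ± 0.70, FDR = 0.00015, edgeR). Cpb2, a carboxypeptidase that slows fibrinolysis, went from 0.559, 11.6, 3.02, 2.37 and 0.473 to 369, 594 and 571 CPM, 62.5% of FH. Each aggregate library lay above all dediHep cultures for these 3 genes. Plg and Serpinc1 were under 10 counts in every dediHep culture, so that their direction was fixed by the filter.

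Fibrinogen and the kininogens came back to levels between 47.2% and 59.5% of FH. Fgg, at 7.82, 97.9, 6.95, 121 and 108 CPM in dediHeps, rose to 1341, 1448 and 1759 in aggregates (log2 4.49 ± 0.82, FDR = 0.00645, edgeR) and was -1.13 ± 0.29 from FH on the log2 scale. Fga, Fgb and Fgg stood at 47.2%, 52.5% and 48.6% of FH, closer to each other than at 2 weeks of culture. For all 3 chains, aggregate replicates 2 and 3 had higher counts than any FH library, and replicate 1 had lower counts. Fga, for example, had 2407, 3776 and 3807 counts in aggregates and 3581, 2899 and 3390 in FH. Such high counts are too low, so the shares of replicates 2 and 3 are understated. The part of this limit in the closeness of the 3 chains was not tested. Kng1 and Kng2, the precursors of kinins, were at 55.5% and 59.5%, and reads of these near copies may be split between them. F10 reached 170.2, 217 and 205 CPM from 0, 9.54, 9.06, 7.89 and 7.57 (log2 4.82 ± 0.61, FDR = 0.000983, edgeR), and Serpind1 879, 507 and 555 from 32.4, 95.9, 8.76, 48.6 and 97.4 (log2 3.54 ± 0.60, FDR = 0.00478, edgeR).

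C4bp, the C4b-binding protein that restrains the classical pathway, was the member nearest to FH. Aggregates had 952, 502 and 778 CPM, FH 1107, 452 and 621 and dediHeps 151, 51.7, 84.3, 41.4 and 286. Aggregates and FH overlapped, at 102% in the mean, and aggregates were above dediHeps by log2 2.61 ± 0.56 (FDR = 0.0145, edgeR). C3 differed less, with 1521, 1244 and 1555 CPM in aggregates, and its log2 difference from dediHeps of 1.27 ± 0.44 passed the FDR (0.0773, edgeR) but not the fold.

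The pore components stayed low, and 6 of 6 were called lower than FH in aggregates, against 0 of 4 in the classical pathway and 1 of 4 among fibrinogen and F13b. Of the 6, C8a and C6 were under 10 counts in every aggregate library. They passed the filter through FH alone, so that their direction was fixed by the filter. C8a had 0.807, 0 and 0 CPM, a single count in 3 libraries against 8667 in FH, a ratio of 18748 with a 95% counting interval of 3364 to 740604. C6 also had 1 count, a ratio of 1110 (198 to 43916). The partner chains of C8a did come back in part, with 7.26, 5.64 and 12.2 CPM of C8b, 0.562% of FH, and 128, 66.4 and 76.8 CPM of C8g, 15%. Hc, at 0 counts in 5 dediHep cultures, was 17.7, 20.4 and 69.7 CPM, at least 146-fold higher, and C9 reached 3.78% of FH. The 3 chains of one complex, C8a, C8b and C8g, thus stood at about 0.00779%, 0.562% and 15% of their fresh levels.

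Serping1, the C1 inhibitor, which also restrains the lectin pathway and kallikrein, stayed low as well. It had 1322, 1388 and 1236 CPM in FH, 2 counts in all 5 dediHep cultures and 0, 0.434 and 5.6 CPM in aggregates (log2 -9.31 ± 0.85 from FH, FDR = 3.15e-05, edgeR). Its targets C1ra and C1s1 stood at 28.7% and 55.6% of FH, though reads of C1ra and C1s1 may be split with the near copies C1rb and C1s2. Of the lectin pathway, Mbl1 had 0, 0.868 and 9.67 CPM, Mbl2 13.7, 58.6 and 36.6 and Masp2 0.807, 12.6 and 39.7, and all 3 were called lower than FH.

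**Figure D3:**
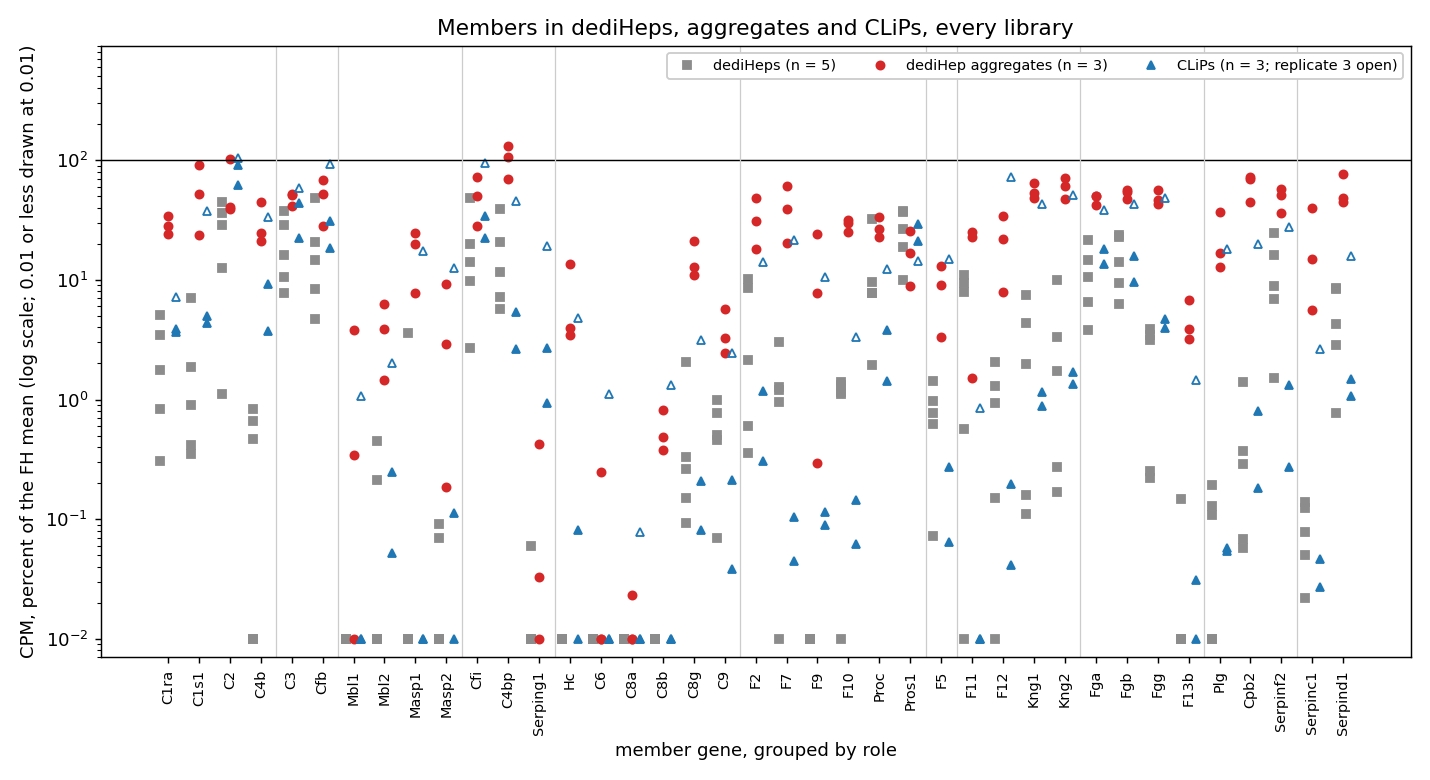
CPM of 39 members in every library of dediHeps (grey squares, n = 5), aggregates (red circles, n = 3) and CLiPs (blue triangles, n = 3, replicate 3 open) as percent of the FH mean (log axis, 0.01% or less drawn at 0.01%, line at 100%). Aggregates lie above dediHeps for most members, and C6, C8a and Serping1 stay low in both. Pros1 lies lower in aggregates, with overlap, at 10.5, 16.1 and 5.6 CPM against 6.32 to 23.5 in dediHeps. CLiP replicate 3 is the highest CLiP library for 38 of the 39.

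CLiPs have to be read library by library. Replicate 3 was the highest of the 3 CLiP libraries for 38 of 39 members, and for 29 it was more than 5-fold above both others. The median member stood at 0.196%, 0.796% and 15.8% of FH in replicates 1, 2 and 3, and the sum of hepatocyte markers was 2894, 2529 and 10718 CPM. F12 read 1.97, 0.42 and 733 CPM, Plg 0.986, 1.05 and 329 and Kng1 13.3, 17.7 and 650.4. The mean of all 3 libraries gives a median of 5.96% of FH over all 40 members, C5ar1 included. That of replicates 1 and 2 gives a median of 0.489% over 39, with 7 members at 10% or more.

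Against FH, 29 of 39 members were called lower in CLiPs (11.4% of all genes) and 34 without replicate 3 (13.7%). Leaving out FH replicate 2 gave 21. Of the 39, 5 were under 10 counts in every CLiP library and passed the filter through FH alone. They were Mbl1, Masp1, C6, C8a and F11, and their direction was fixed by the filter. Without replicate 3 this also held for others, such as Hc, C8b and F7. The members not called either way were C2, C3, Cfb and Cfi, of the early steps of complement and its control. Without replicate 3, C3, Cfi and Cfb passed the FDR as lower and missed only the fold (log2 -1.59, -1.84 and -1.92, FDR = 0.0199, 0.0193 and 0.04, edgeR). C2 did not pass there (log2 -0.39, FDR = 0.569, edgeR). C2, the classical pathway protease that cuts C3 once bound to C4b, had 198, 133 and 223 CPM against 191, 175 and 282 in FH, overlapping groups. C3 had 1317, 667 and 1744 CPM (log2 -1.21 ± 0.52 from FH, FDR = 0.116, edgeR), and Cfi 92.7, 141 and 393 CPM against 603, 298 and 343. C8a, C6 and Mbl1 had no count in replicates 1 and 2 and 6, 5 and 6 counts in replicate 3.

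Against dediHeps, 2 of 24 members tested were called higher in CLiPs (1.65% of all genes), with and without replicate 3, and none lower (1.39%). Without CLiP replicate 2 there were 4 higher, and without dediHep replicate 1 there was 1 lower. The 2 were Serping1, at 12.3, 35.5 and 252 CPM against 2 counts in dediHeps (ratio 490, 95% counting interval 135 to 4052, FDR = 0.00885, edgeR), and C4b, which binds C2, at 27.6, 11.3 and 101 CPM against 0, 2.51, 0, 1.97 and 1.42 (log2 5.33 ± 0.97, FDR = 0.0216, edgeR), whose reads C4a may share. Both genes were under 10 counts in every dediHep culture and passed the filter through CLiPs, so that their direction was fixed by the filter. The median log2 difference of the members was 1.30 with all libraries and -1.01 without CLiP replicate 3, beside -0.03 over all genes. The sum of 7 stellate and fibroblast markers, cells that also express Serping1, was 16.8, 1.05 and 24.0 CPM in the 3 CLiP libraries and 0 to 1.68 in dediHeps, and their part in the Serping1 of CLiPs was not tested.

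Aggregates and CLiPs were then compared directly. With all libraries, 5 of 34 members were called higher in aggregates (3.23% of all genes), which were C1ra, F10, C8g, Serpind1 and Proc, and Serping1 alone was called lower (3.99%). Without CLiP replicate 3 there were 28 of 35 (7.37%), and leaving out any other library gave 1 or 2. Some of the 28, such as F7, F10 and Plg, were under 10 counts in both remaining CLiP libraries. Their direction was fixed by the filter. Serping1 lost its call without aggregate replicate 1 or 2. C1ra differed most firmly, with 203, 174 and 249 CPM in aggregates and 26.6, 28.4 and 52.4 in CLiPs (log2 2.52 ± 0.40, FDR = 0.0133, edgeR). Serping1 was -5.54 ± 1.40 in aggregates relative to CLiPs on the log2 scale (FDR = 0.0535, edgeR).

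In intestinal organoids few members were found in every library. A member was taken as expressed where every library had at least 3 counts, which held for 9 of 40 in dediHep-SOs, 4 in FIPC-SOs, 5 in dediHep-BOs and 5 in ISC-BOs. The members made up 0.0733 ± 0.0145% of counts in dediHep-SOs, 0.0172 ± 0.0107% in dediHep-BOs, 0.00262 ± 0.00066% in FIPC-SOs and 0.00478 ± 0.00119% in ISC-BOs. Against FH, 39 of 39 were called lower in FIPC-SOs (15% of all genes) and 38 of 38 in ISC-BOs (13.3%), which follows for members that passed the filter through FH alone. The fibrinogen genes, for example, had 0 counts of Fga and 0 of Fgb in FIPC-SOs.

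The members expressed in all 4 kinds of organoid were C4bp, Cfi and C1ra. C4bp read 332, 304 and 196 CPM in dediHep-SOs, 147, 84.7 and 22.5 in dediHep-BOs, 18.4, 14.2, 9.32 and 17.9 in ISC-BOs and 3.12, 2.1 and 2.25 in FIPC-SOs. Cfi, its partner in cutting C4b, read 34.4, 33.2 and 71.3, 59.7, 32.6 and 11.3, 2.16, 2.09, 1.69 and 1.31 and 7.41, 4.21 and 3.21 CPM in the same order. For both genes every dediHep-derived library lay above the intestinal organoids of the same shape. Serpinf2 was expressed in the intestinal references, at 9.73, 7.11, 4.24 and 2.18 CPM in ISC-BOs and 1.56, 2.1 and 2.25 in FIPC-SOs, and had 2, 0 and 1 counts in the 3 dediHep-SO libraries.

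Spherical organoids differed in 5 of the 7 members tested, all higher in dediHep-SOs than FIPC-SOs (4.92% of all genes called higher), and the 33 others had too few counts. C3, C4bp, Proc and F5 were under 10 counts in every FIPC-SO library and passed the filter through dediHep-SOs, so that their direction was fixed by the filter. C3 had 313, 246 and 149.9 CPM in dediHep-SOs and 2.34, 0.35 and 0.643 in FIPC-SOs (log2 7.69 ± 0.60, FDR = 8.5e-05, edgeR). C4bp differed by log2 6.74 ± 0.40 and Cfi by 3.19 ± 0.47 (FDR = 2.92e-05 and 0.00175, edgeR). Proc, the anticoagulant protein C, had 58.8, 57 and 35.6 CPM against 1 count in 3 FIPC-SO libraries, a ratio of 439 (95% counting interval 78.3 to 17375). F5, the cofactor that activated protein C inactivates, had 55.6, 49.1 and 24.5 CPM against 3 counts, a ratio of 127 (43.0 to 618).

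**Figure D4:**
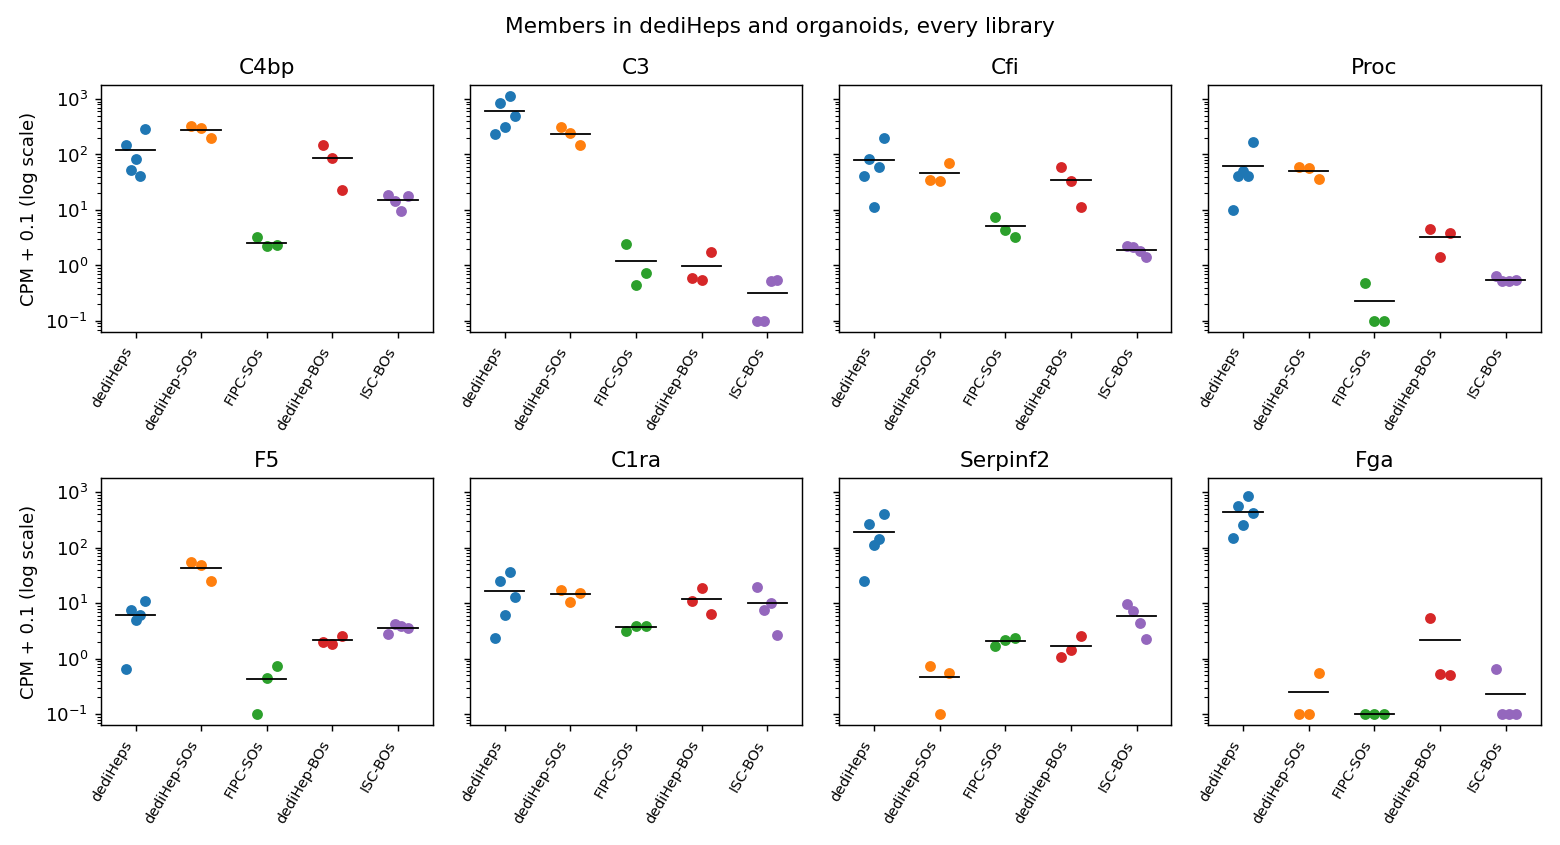
CPM + 0.1 (log axis) of 8 members in every library of dediHeps (n = 5), dediHep-SOs (n = 3), FIPC-SOs (n = 3), dediHep-BOs (n = 3) and ISC-BOs (n = 4), with a bar at each mean. C4bp, C3, Cfi, Proc and F5 lie higher in dediHep-SOs than in FIPC-SOs, and Fga, at 149 to 838 CPM in dediHeps, does not exceed 5.34 CPM in any organoid library.

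Relative to the dediHeps they came from, dediHep-SOs were lower in fibrinogen and several clotting factors. Of 20 members tested 13 were called lower (4.65% of all genes) and 1 higher (4.12%), with 8 lower without dediHep-SO replicate 1. The 13 were Fga, Fgb, Fgg, Kng1, Kng2, F2, F7, F10, F12, Serpinf2 and Serpind1 of coagulation and C2 and C9 of complement. All but C2 were under 10 counts in every dediHep-SO library and passed the filter through dediHeps, so that their call as lower follows in part from the filter. With a block for the 3 cultures that both groups share, 6 of 14 members tested were lower (3.13% of all genes), namely Fga, Fgb, Fgg, F2, Serpinf2 and Serpind1, and F5 was again the one higher (4.16%). Of the 7 others, C2 lost its call and Kng1, Kng2, F7, F10, F12 and C9 had too few counts to be tested there. Fga fell from 149, 566, 255, 838 and 414 CPM to 1 count in 3 dediHep-SO libraries, a ratio of 3251 (583 to 128434). F5 went from 0.559, 7.53, 4.83, 5.92 and 10.9 CPM in dediHeps to 55.6, 49.1 and 24.5 in dediHep-SOs (log2 2.85 ± 0.58, FDR = 0.00926, edgeR). C3, C4bp, Cfi, Proc, C1ra and Pros1 were not called between dediHeps and dediHep-SOs.

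In budding organoids 2 of 3 members tested were called. Cfi was higher in dediHep-BOs than ISC-BOs by log2 4.24 ± 0.56 (FDR = 0.00148, edgeR) and C4bp by 2.53 ± 0.51 (FDR = 0.0163, edgeR), beside 1.34% of all genes called higher and 1.71% lower. Cfi was under 10 counts in every ISC-BO library and passed the filter through dediHep-BOs, so that its direction was fixed by the filter. Without dediHep-BO replicate 1 the C4bp difference was 1.86 (FDR = 0.0884, edgeR), under the fold. The sum of stellate and fibroblast markers was 281, 295 and 4.17 CPM in dediHep-BOs 1 to 3 and 2.51 to 7.86 in ISC-BOs, the same order of high and low libraries as for Cfi and C4bp in that replicate 3 is lowest, and its part in these differences was not tested. C1ra was not called, with 10.7, 18.5 and 6.26 CPM in dediHep-BOs and 19.5, 7.52, 10.2 and 2.62 in ISC-BOs. C3, abundant in dediHep-SOs, had 0.485, 0.441 and 1.67 CPM in dediHep-BOs and 0, 0, 0.424 and 0.437 in ISC-BOs.

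Other genes of the pathways, a list of 62, moved in both directions. At 2 weeks 26 of 42 tested were called lower than FH and 6 higher, beside 15.3% and 14.1% of all genes. The lower ones included vitronectin (Vtn), which binds the terminal complement complex, at 2229 CPM in FH and 7.13 at 2 weeks in the mean. The higher ones included Thbd, Procr, F2rl1, Plat and Plaur, receptors and regulators that act on cell surfaces or on plasminogen. Thbd, thrombomodulin, was 2.39 CPM in FH, 3.16 at 3 h and 60.6 at 2 weeks. Its FH mean lay under the level of 3 counts in any FH library (3.10 to 4.11 CPM), so that it passed the filter through other times. The direction of Thbd was thus fixed by the filter, and for the other calls of this list such a limit is not given here. In aggregates 16 of 28 were called higher than in dediHeps (4.39% of all genes), among them Vtn (987 CPM), and F2r, a thrombin receptor, was among the lower. In dediHep-SOs 5 of 14 were called higher than in FIPC-SOs (4.92% of all genes) and Tfpi, an inhibitor of the start of coagulation, was lower. The higher ones included Habp2, a protease that can activate factor VII, at 379 against 6.34 CPM, and clusterin (Clu), which binds the terminal complex, at 1584 against 155.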

How the data were processed

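RNA of 49 libraries was prepared by CEL-seq2, a 3′ method that counts molecules by identifiers (UMIs) of 6 bases. The deposited table holds raw UMI counts per gene, which the authors made; the submitters' processing notes name bcl2fastq 2.20, Bowtie2 2.3.1, HTSeq 0.6.0 and GRCm38. Groups came from the labels, and columns were matched to samples by name. Identifiers were paired with symbols for 45143 of 46078. Counts were tested with edgeR 4.0.16 (quasi-likelihood, TMM, R 4.3.3) within the groups of each comparison, after filterByExpr (minimum count 10, total 15), and a gene was called where FDR was under 0.1 and the size of its log2 fold change over 2. DESeq2 1.42.0 was an alternative. The tests were checked on simulated data. Members and lists were chosen with earlier results of these data known, and any member could be named, with full values for those called, those whose call differed from most members and the highest or lowest by level or change. Comparisons share the FH libraries. Intervals (95%) and the floor of 3 counts cover counting error only. No 2 replicates agreed within sampling noise (54 pairs, chi-square per degree of freedom 5.62 to 68). Same-culture aggregates and dediHeps deviated together (r = 0.179 to 0.357), as did the 2 verteporfin and DMSO pairs (r = 0.436) and, by number, 1 week and 4 days (r = 0.266 to 0.625); the culture names come from the labels. For dediHep-SOs and dediHeps of shared culture r was -0.499 to 0.0444. Alternatives covered normalization, the low-count filter, UMI correction, one fit of all libraries, the block and leaving out each library. Contrasts of consecutive times and CLiPs without replicate 3 were added after the data were seen.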

Additional observations from a re-analysis of the deposited data

Results flagged for a closer look

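Dixon's criterion at 95% was applied to members with a mean of at least 10 counts in dediHeps or in ISC-BOs, 24 tests in all. It set 1 library apart in 3 of them, all in the 5 dediHep cultures, and chance gives about 1 in 20. C1s1, a protease of the C1 complex, was 18.9 CPM in replicate 4, and the others lay between 0.946 and 5.02. F10 had 0 counts in replicate 1, against 7.57 to 9.54 CPM in the others. Proc was 166 CPM in replicate 5, against 10.1 to 50.1 CPM in the others.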

How the results depend on the processing

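Of the counts of members called, those at 2 days to 2 weeks against FH, for dediHeps against FH and for aggregates against dediHeps stayed within 1.5 times under the alternatives run. At any fold with FDR under 0.1, the counts were 1 higher at 3 h, 37 lower at 1 day, 32 lower for aggregates against FH, and 25, 19, 13 and 14 lower (1 and 1 higher from 2 to 4 days and from 4 days to 1 week) over the 4 steps after 1 day. One fit of all 49 libraries gave 1 lower and 19 higher for CLiPs against dediHeps, 16 higher for aggregates against CLiPs, 1 lower for dediHep-SOs against FIPC-SOs with a median of 0, 4 higher for dediHep-BOs against ISC-BOs, and 7, 1 and 3 lower over the last 3 steps. Without the low-count filter there were 12 higher for CLiPs against dediHeps, 15 for aggregates against CLiPs, 8 higher and 1 lower for dediHep-SOs against FIPC-SOs and 4 higher for dediHep-BOs against ISC-BOs. DESeq2 gave 10 higher for aggregates against CLiPs. UMI correction gave 1 higher from 4 days to 1 week, 1 member first lost at 4 days and 2 at no time, Cfb and the untested C5ar1. By the rule of a mean under 50% of FH, 1, 36, 1, 1, 1 and 0 members were lost from 3 h, 1 day, 2 days, 4 days, 1 week and 2 weeks, and 0 at no time. The member lost from 4 days was C5ar1. At 10 counts in every library 1 member was expressed in FIPC-SOs, 3 in dediHep-BOs and 1 in ISC-BOs. Aggregates stood at 37.1% of FH without TMM factors. For most fits of this section the share of all genes called is not given. Their counts thus cannot be read as particular to the members. The cause of these shifts was not tested.

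With the replicate block, dediHep-SOs against dediHeps gave 6 lower, CLiPs against dediHeps 1 higher and aggregates against CLiPs 17 higher; only culture names pair the first, and the others share only a number. No other count moved by over 1.5 times with the block, and the step from 4 days to 1 week had 8 lower with it as without. Where r was not above 0.1 in every pair, the numbers were not taken to pair the samples.

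Leaving out 1 library gave these ranges of members lower: 18 to 22 at 1 day, 34 to 37 at 2 days, 17 to 21 for aggregates against FH, 21 to 34 for CLiPs against FH, 0 to 1 for CLiPs against dediHeps, 0 to 1 for aggregates against CLiPs, 0 to 1 with verteporfin, 8 to 13 for dediHep-SOs against dediHeps, and 8 to 14, 10 to 11, 4 to 9 and 3 to 9 over the 4 steps. Ranges of members higher were 22 to 26 for aggregates against dediHeps, 2 to 4 for CLiPs against dediHeps, 1 to 28 for aggregates against CLiPs, 5 to 6 for dediHep-SOs against FIPC-SOs, 1 to 2 for dediHep-BOs against ISC-BOs, and 0 to 1 from 2 to 4 days and from 4 days to 1 week. The median percent of FH over all 40 members was 22.6 to 28.5 in aggregates and 0.329 to 8.65 in CLiPs. The median log2 fold change ran from -0.19 to 0.0208 (without FH replicate 2) at 3 h and from -1.01 (without CLiP replicate 3) to 1.64 for CLiPs against dediHeps. Most members had few counts in organoids, which limits those tests, and abundant members were limited by the number of UMIs.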
